A study of Homo sapiens with 4 samples.

Results

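The genes described here encode 8 proteins that carry a signal from growth factor receptors to the RAF kinases: the phosphatase SHP2 (PTPN11), the adaptors GRB2 and SHC1, the exchange factor SOS1, the GTPases HRAS and NRAS, and the kinases ARAF and BRAF. Each gene was looked up by its symbol among the named peaks of N7-methylguanosine (m7G) immunoprecipitation, and a gene without a row was counted as having no peak. They are 8 of 20052 annotated protein-coding genes. The cells were untreated U2OS, an established human osteosarcoma line, grown in DMEM with serum. Poly(A) RNA from whole cells gave 2 input libraries with no antibody and 2 libraries immunoprecipitated (IP) with an anti-m7G antibody, all from this 1 line and condition. The measurements used were 1 peak table for each IP replicate, with 4326 and 4862 peaks.

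A growth factor receptor that has been switched on is phosphorylated on tyrosines, and SHC1 and GRB2 dock there. GRB2 brings SOS1 to the membrane, where SOS1 loads RAS proteins with GTP, and GTP-bound RAS recruits the RAF kinases that start the MEK and ERK cascade. SHP2 is a tyrosine phosphatase that is required for full RAS activation downstream of many receptors. m7G is the methylated guanine of the mRNA cap and has also been mapped inside mRNA. Removal of the cap before immunoprecipitation is not described in the labels' protocols.

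PTPN11, SHC1 and HRAS each carried a peak that overlapped between the replicates. GRB2 and NRAS carried weaker peaks in replicate 1 alone, and SOS1, ARAF and BRAF had no peak in either table. The fold enrichment of IP over input, the authors' own value for each peak, was 55.5 and 60 on PTPN11 but about 5 on SHC1 and HRAS. All 3 shared peaks began at or near the annotated gene start.

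The sequences at the starts of SHC1 and HRAS are shown because their shared peaks reach into them. The PTPN11 peak also covers its start, but no start sequence was available for PTPN11, so none is shown. Those of GRB2 and NRAS are shown for comparison, as their replicate 1 peaks begin further downstream, and so is the second annotated start of SHC1. Each sequence runs 5′ to 3′ on the strand of the gene, minus in all 5 cases, from 50 bases before the annotated start to the first 30 bases of the transcript. It comes from RefSeq, build GRCh38.p14. Capitals mark bases inside a peak in both replicates.
SHC1, outer start, chr1:154974347-154974426: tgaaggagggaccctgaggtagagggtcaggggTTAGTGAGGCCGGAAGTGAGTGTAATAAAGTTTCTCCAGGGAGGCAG
SHC1, inner start, chr1:154970718-154970797: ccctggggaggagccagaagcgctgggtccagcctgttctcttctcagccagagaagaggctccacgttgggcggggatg
HRAS, chr11:535547-535626: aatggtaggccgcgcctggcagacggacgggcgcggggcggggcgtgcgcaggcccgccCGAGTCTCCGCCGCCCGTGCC
GRB2, chr17:75405649-75405728: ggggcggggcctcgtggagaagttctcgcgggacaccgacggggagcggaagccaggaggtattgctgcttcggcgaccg
NRAS, chr1:114716742-114716821: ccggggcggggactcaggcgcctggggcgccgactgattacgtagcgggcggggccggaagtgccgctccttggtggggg
The SHC1 peak took in 47 of the 80 bases at the outer start, 17 of them before it. The HRAS peak took in 21, all after the start. No base at the inner start of SHC1, or of the GRB2 and NRAS sequences, lay in a peak.

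Start windows of 300 bases, from 250 before to 50 after an annotated start, were found for 7 of the 8 genes, with 9 windows in all. PTPN11 was the gene without a window. The HRAS window had a GC content of 78% and 5 matches to the GC box GGGCGG. The GC content was 72.3% for GRB2, 57.3% for NRAS, and 55% and 61.7% for the outer and inner start of SHC1, against a median of 58.7% over all 35116 windows. The outer SHC1 window held 0 GC boxes and 4 matches to CCAAT, whereas the inner one held 3 and 1. GRB2 had 4 GC boxes and NRAS 3. The SOS1, ARAF and BRAF windows had a GC content of 51% to 65.7% and 0 or 1 GC boxes. Over all windows, 45% held a GC box, 34.6% CCAAT and 11.5% the TATA box TATAAA. Of the 9 windows of these genes, 5 held a GC box, 6 CCAAT and 0 the TATA box. Matches were counted on both strands, overlapping ones included, and describe letters only.

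**Figure D1:**
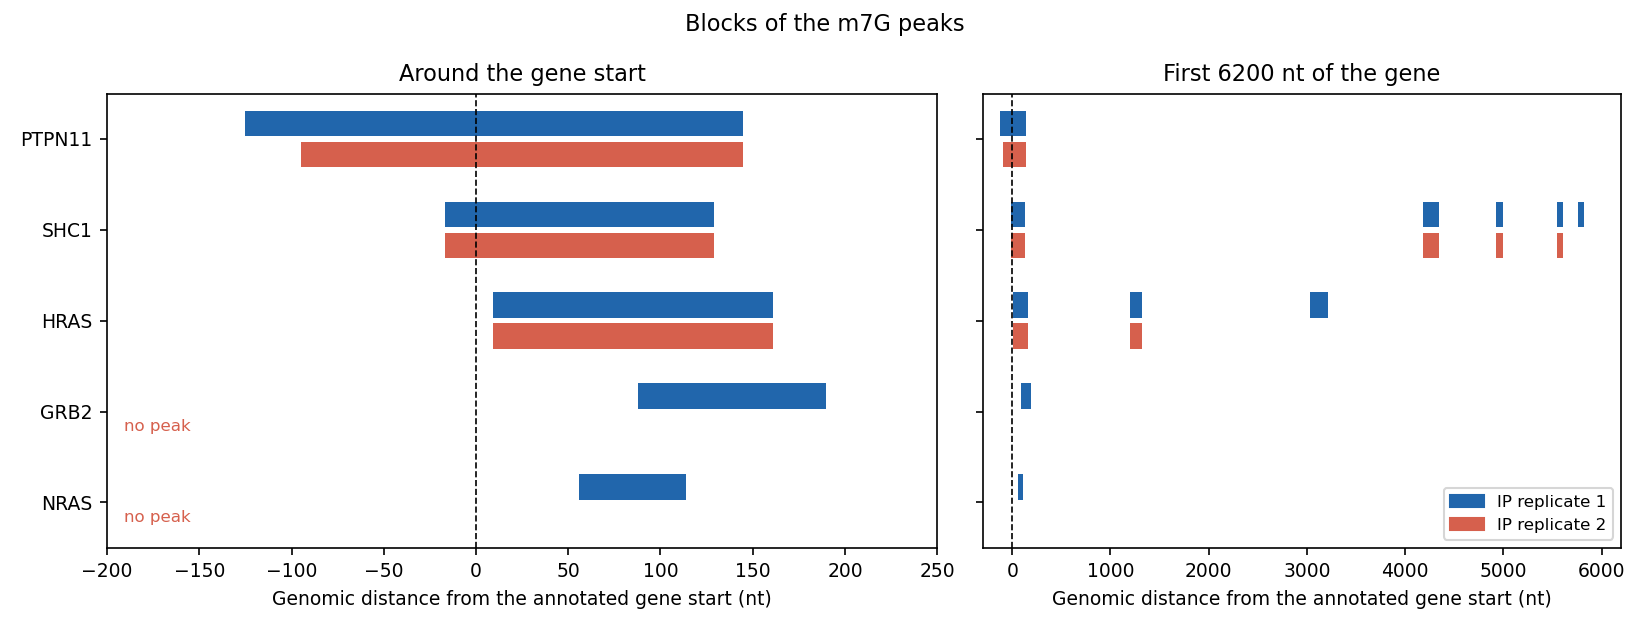
Blocks of each peak by genomic distance from the annotated gene start (dashed line, in nucleotides), in IP replicate 1 (blue) and replicate 2 (red); the left panel enlarges the start and the right panel shows the first 6200 nt. The PTPN11 and SHC1 peaks cross the start in both replicates, the HRAS peak begins 9 nt inside it, and GRB2 and NRAS have blocks in replicate 1 alone. A 3-nt block of NRAS is too short to be seen, and 2 GRB2 blocks lie beyond the axis.

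PTPN11 encodes SHP2, the only phosphatase among the 8. Its peak had a fold of 55.5 in replicate 1 and 60 in replicate 2. Both values are close to the top of their tables, at rank 26 of 4326 and rank 18 of 4862 by fold. The mean log2 fold was 5.85 ± 0.08 (SD, n = 2), which is 57.7-fold, and by the lower of both folds the peak ranked 8 of 2642 shared peaks. The replicates differed by 0.11 on the log2 scale. Across all shared peaks the median absolute difference was 0.30, and 21.4% differed by less than PTPN11 did. Among the 59 shared peaks with a lower fold of at least 20 the median difference was 0.45 and the 95th percentile 1.49.

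In significance PTPN11 stood lower than in fold. Its log10 p was -13.3 in replicate 1 and -10.7 in replicate 2, ranks 675 and 1118. SHC1, with a far smaller fold, was more significant in both tables. The PTPN11 folds are also values that many peaks share. The fold of 55.5 was held by 26 peaks of replicate 1 and is 3 times 18.5, the most frequent fold of 10 or more in that table. The fold of 60 was held by 11 peaks of replicate 2 and is 6 times the most frequent such fold there, 10. Among the peaks of equal fold PTPN11 was 2 of 26 and 3 of 11 by significance, and their median log10 p was -4.54 and -6.82. Of the peaks at or above these most frequent folds, 132 of 253 in replicate 1 and 148 of 509 in replicate 2 were whole multiples within 0.05. No read counts were used here, so depth is unknown. The small difference between the 2 replicates therefore does not establish the precision of a fold this high.

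The position of the PTPN11 peak was checked against RPL6, a ribosomal protein gene that begins on the other side. On GRCh38 the peak lay on the plus strand at chr12:112418822-112419091 in replicate 1 and at chr12:112418852-112419091 in replicate 2, as 1 block of 270 and 240 nt. The annotated PTPN11 span begins at 112418947, so the peaks began 125 and 95 nt before it and both ended 144 nt after it. The RPL6 span ends at 112418835, leaving 111 nt between the genes. The replicate 1 peak entered the RPL6 span by 14 nt and the replicate 2 peak by 0 nt. The start windows listed for RPL6 are on the minus strand, opposite to the peak. RPL6 itself had no peak in replicate 1 and 1 in replicate 2, on the minus strand, 10358 nt from the PTPN11 peak, with a fold of 1.90. The peak thus covered the PTPN11 start on the strand opposite to RPL6.

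SHC1 is the adaptor that binds phosphotyrosines on receptors and is itself phosphorylated to recruit GRB2. Its peak had folds of 5.24 and 4.77, a mean log2 fold of 2.32 ± 0.10 (SD, n = 2). The folds were moderate, above 60.7% and 68.2% of the peaks of their tables. Its log10 p of -30.9 and -41.2 was the strongest of the 8 genes, at ranks 236 and 213. The difference between replicates, -0.14 on the log2 scale (replicate 2 minus 1), was smaller than that of most shared peaks, 25.5% of which differed by less.

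The SHC1 peak was spread over 5 blocks in replicate 1 (508 nt in all) and 4 in replicate 2 (448 nt). The first block was the same in both, 146 nt at chr1:154974248-154974393, and began 17 nt before the annotated start. The next blocks, of 168 and 71 nt, were also the same and lay 4177 and 4928 nt into the gene. A block at 5542 nt differed by 1 nt, and the last, of 59 nt at 5762 nt, was in replicate 1 alone. The blocks skip the inner annotated start. CKS1B, which encodes a small subunit of cyclin-dependent kinases, lies 304 nt beyond the SHC1 start on the plus strand and had no peak.

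HRAS is a RAS GTPase, the switch that SOS1 loads with GTP. Its main peak had folds of 5.63 and 4.24, a mean log2 fold of 2.29 ± 0.29 (SD, n = 2). The replicate 2 fold was lower by 0.41 on the log2 scale, a larger gap than on PTPN11 or SHC1, but 95% of shared peaks differed by less than 1.28 and 62.6% by less than HRAS. The log10 p was -21 and -12.2. The boundaries were identical in both replicates: a block of 152 nt at chr11:535416-535567, from 9 to 160 nt after the annotated start, and a block of 119 nt at chr11:534257-534375. A second HRAS peak of 180 nt, near the other end of the gene at chr11:532362-532541, was found in replicate 1 alone, with a fold of 2.00 and log10 p of -5.12. The span of LRRC56, a leucine-rich repeat gene on the plus strand, covers both HRAS peaks. The peaks were on the minus strand, and no peak of either table was named for LRRC56.

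GRB2 links phosphorylated receptors and SHC1 to SOS1. It had 2 peaks in replicate 1, with folds of 3.04 and 3.18 and log10 p of -5.67 and -5.47, and 0 in replicate 2. The second of these had a block of 102 nt from 88 to 189 nt after the annotated start, at chr17:75405489-75405590, joined to 18 nt in a block 11913 nt into the gene. The other, at chr17:75319562-75319651, lay 86027 nt into a gene that spans 87603 nt, so it was near the gene end. Both folds were below the table's median of 4.27.

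NRAS, the close relative of HRAS, had a single weak peak in replicate 1 and none in replicate 2. Its fold was 1.89, above 11.8% of the peaks of that table, and its log10 p of -3.51 was above 5.8% of them in significance. Of its 61 nt, 58 lay in a block from 56 to 113 nt after the annotated start, at chr1:114716658-114716715. No peak of another name lay within 3000 nt of the NRAS span in either table.

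The peaks found in 1 replicate were the least significant of the set. The 4 peaks that replicate 1 alone gave on GRB2, NRAS and HRAS had log10 p from -3.51 to -5.67, and the 3 shared ones from -10.7 to -41.2 over both tables. In replicate 1 as a whole, 98.3% of the 955 peaks with a log10 p stronger than -10 overlapped a replicate 2 peak. The share was 47.5% between -6 and -4 and 27.4% of those weaker than -4. Peaks weaker than a false discovery rate of 0.049 in replicate 1 and 0.0479 in replicate 2 are not listed, so the missing replicate 2 peaks of GRB2 and NRAS could lie just past the threshold or be absent.

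**Figure D2:**
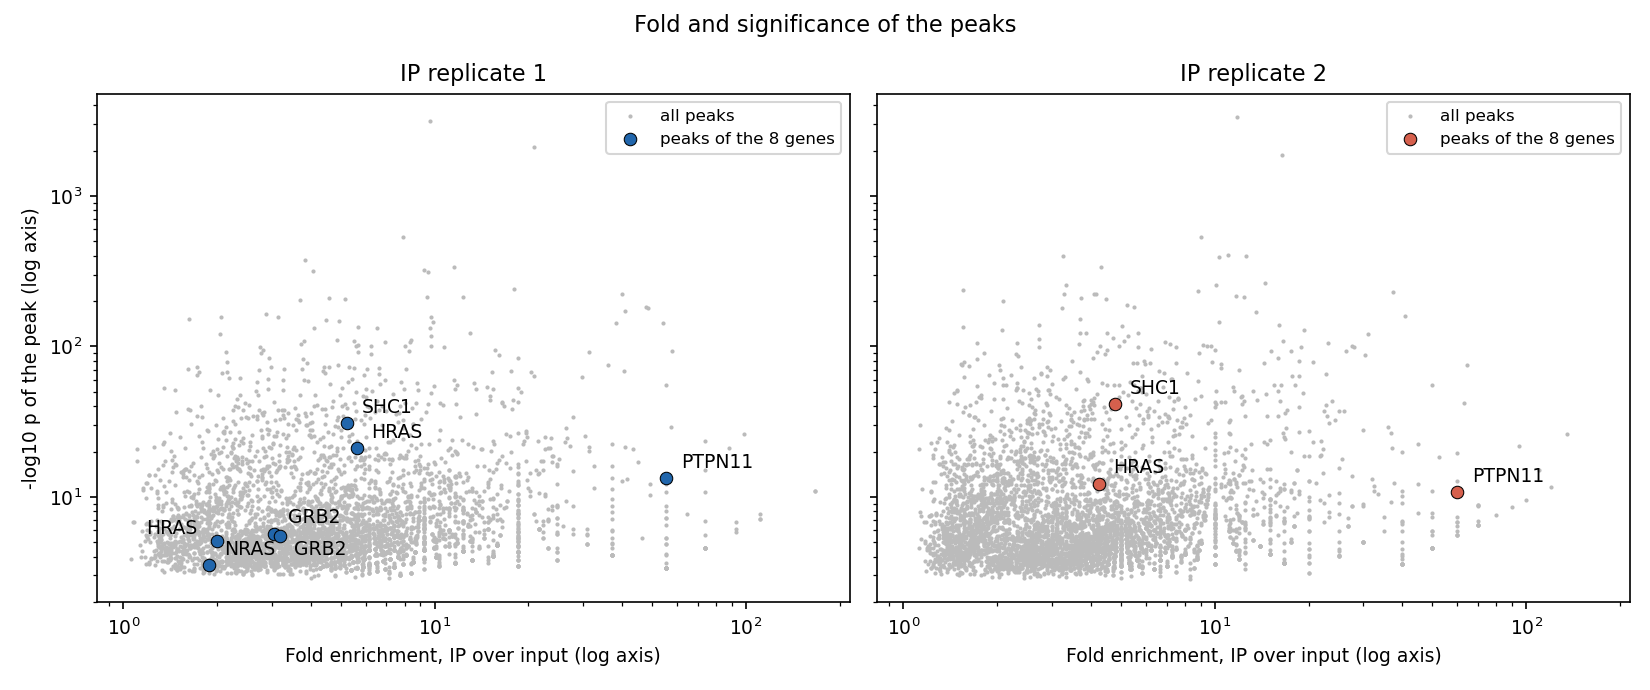
Fold enrichment of IP over input (x, log axis) against -log10 p (y, log axis) for every peak of replicate 1 (left) and replicate 2 (right), with all peaks in grey and those of the 8 genes coloured and named. PTPN11 lies far to the right (55.5 and 60), more significant than 84.3% and 76.8% of the peaks. SHC1 and the main HRAS peak lie at moderate fold and higher significance, HRAS only slightly higher in replicate 2 (above 80% of peaks). The GRB2, NRAS and second HRAS peaks lie low in the left panel.

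SOS1, the exchange factor, and the kinases ARAF and BRAF had no peak under their names in either replicate. No peak of another name lay in their spans or within 3000 nt of them. Their spans run over 143320 nt (SOS1), 10704 nt (ARAF) and 211602 nt (BRAF). Expression was not measured in these tables and its part in these absences was not tested. A missing row says only that no peak passed the threshold. In bulk RNA such as this, fewer cells carrying an mRNA and less of it per cell cannot be told apart.

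In counts, 5 of the 8 genes (62.5%) had a peak in replicate 1, against 15.9% of all protein-coding genes, and 3 (37.5%) in replicate 2, against 17.4%. In either replicate it was 5, against 21.6% of all genes. A shared peak was on 3 of 8, against 10.5% of all genes, and the same 3 passed a fold of 4 in both tables, against 5.16%. These shares are above the background. The genes were chosen with earlier results known. The background takes in all annotated protein-coding genes, whether or not U2OS cells transcribe them, and the part of expression in these shares was not tested. With replicate 1 alone the count was 5, and with replicate 2 alone it was 3, the same 3 genes as those with a shared peak. No test was made, since the series holds a single condition with 2 IP replicates. The labels do not say whether these came from separate cultures, so the spread between them may be technical.

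Position was alike among the shared peaks. The 5′ edge lay within 200 nt of the annotated start for PTPN11, SHC1 and HRAS, as for 33.5% of all 2639 shared peaks with a matched gene. Taking the strongest shared peak of each gene, it was 39.5% of 2099 protein-coding genes. By the middle base of the joined blocks, PTPN11 (10 and 25 nt) and HRAS (144 nt in both) remained within 200 nt, but SHC1 did not (4284 and 4254 nt), because most of its length lies in later blocks. In replicate 1 the start peaks of NRAS and GRB2 also had their 5′ edge within that distance.

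Peaks were also looked up on the closest relatives of these genes. SOS2, the other SOS gene, had no peak, so 0 of 2 SOS genes were found in either table. Over all protein-coding genes 21.6% had a peak in either table and 10.5% a shared peak, so 0 of 2 is not unusual. Of the 4 SHC genes, SHC2 had a shared peak as well (6.94- and 7-fold, its 5′ edge 96 nt after the gene start), and SHC3 and SHC4 had none. GRAP and GRAP2, relatives of GRB2, and PTPN6, the SHP1 phosphatase, had none. SOS2, SHC3, SHC4, GRAP, GRAP2 and PTPN6 are named here as relatives, outside the rule for named genes.

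**Figure D3:**
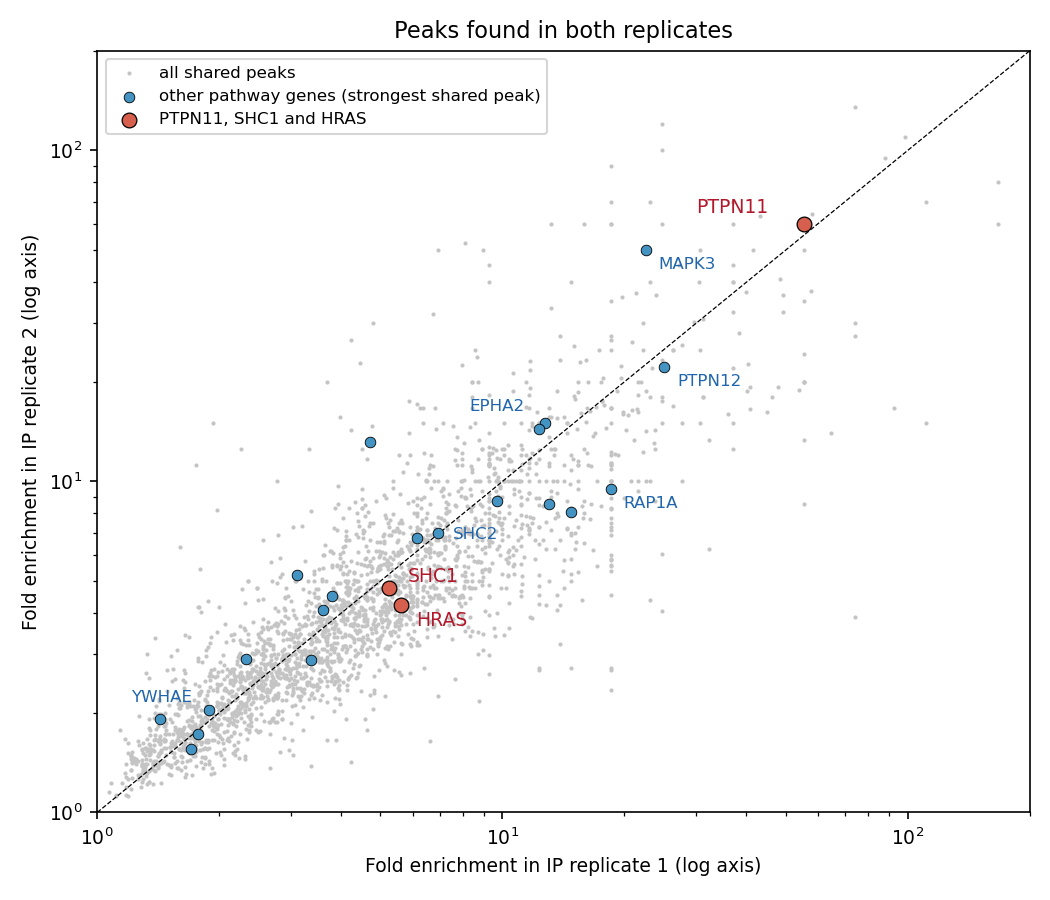
Fold enrichment in IP replicate 1 (x) and replicate 2 (y), both on log axes, of the 2642 shared peaks (grey), with PTPN11, SHC1 and HRAS in red and the strongest shared peak of each of 20 other pathway genes in blue; the dashed line marks equal folds. PTPN11 lies next to the line at the top right, and SHC1 and HRAS just below it at about 5-fold.

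Of 96 other genes of the pathway, 20 (20.8%) had a shared peak, against 10.5% of all protein-coding genes, and 11 of them passed a fold of 4 in both tables, which 5.16% of all genes did. Their median lower fold was 5.44, against 4.77 for PTPN11, SHC1 and HRAS and 3.95 over all genes with a shared peak. The 5′ edge of the strongest shared peak lay within 200 nt of the start in 11 of the 20 (55%), against 39.5% of all genes with a shared peak. None of these genes reached the lower fold of PTPN11. The nearest were MAPK3, which encodes the kinase ERK1 (22.6 and 50), and PTPN12, another tyrosine phosphatase (25.1 and 22.2, the only 1 of 6 phosphatases listed).

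By role the counts are small and are read against the same 10.5% of all genes. Among receptors 3 of 16 (18.8%) had a shared peak, not far from that share: EPHA2, an ephrin receptor (12.7 and 15), IGF1R (9.69 and 8.70) and AXL (1.77 and 1.73). Among adaptors it was 3 of 19 (15.8%), also not far from it: SHC2, CRK (6.17 and 6.76) and DOK1 (4.70 and 13.2), whose replicates differed by 1.49 on the log2 scale, past the 95% bound of 1.28. Among further small GTPases RAP1A (18.5 and 9.50) and RRAS (3.79 and 4.52) had one, and the GTPase-activating proteins and inhibitors with one included RASA1 (12.3 and 14.4) and SPRED3 (13 and 8.57). Of the 6 listed YWHA genes for 14-3-3 proteins, which bind phosphorylated RAF, 5 had a shared peak. The highest were YWHAH (3.61 and 4.10), YWHAB (3.12 and 5.22) and YWHAG (2.33 and 2.91). None of the 5 reached a fold of 4 in both replicates. With 50% reciprocal overlap YWHAE, YWHAG, AXL, IGF1R, RRAS and MAP2K1 were not shared. With a false discovery rate of at most 0.001, YWHAG, SPRED3, RRAS and MAP2K1 were not. Of the 4 downstream kinases 3 had one, MAPK3, MAP2K1 (3.36 and 2.88) and MAP2K2 (1.70 and 1.55). The 6 other exchange factors and the 7 genes that anchor RAS in the membrane had 0 shared peaks, in lists too small to set apart from 10.5%. In replicate 1 alone 2 of the 7 anchoring genes had a peak, against 15.9% of all genes.

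For the line as a whole, 4 of 8 osteoblast and mesenchymal markers had a shared peak. Of epithelial markers 2 of 5 had one, of neuronal 2 of 4, of haematopoietic 0 of 5 and of hepatocyte 0 of 3. Over all protein-coding genes the share was 10.5%, so 0 in lists this small does not set them apart. These counts describe peaks and not expression, so they do not settle the cell type. Median folds were 4.27 in replicate 1 and 3.48 in replicate 2.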

How the data were processed

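Reads were aligned with STAR to GRCh38, per the submitters' processing notes. For the peak caller, its settings and the use of strand in counting, nothing was stated in the labels or headers. The authors deposited 1 peak table for each of 2 IP replicates. Per the file headers, each peak has a p-value, the log10 of its p-value and of its false discovery rate (both handled as a score) and the fold of IP over input, a ratio on a linear scale with no stated scaling. The 2 input libraries enter only through the values listed for these peaks, and whether the p-values also draw on them was not stated. The kit was stranded, per the labels' protocols.

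Same-strand peaks whose blocks overlapped by 1 bp or more counted as shared, and each was paired with its mutually best partner. Names were matched to RefSeq genes (GRCh38.p14) by symbol or synonym within 2000 nt (4320 and 4854 peaks matched). Distances run from the annotated gene start, below 0 before it, and coordinates are 1-based. The overlap search was tested on simulated data. Alternatives tried were 50% reciprocal overlap, a midpoint distance up to 100 nt, a false discovery rate of at most 0.001, folds from 4 up, leaving out each replicate, naming by gene span and other measures of position.

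The genes and lists were chosen with earlier results of these data known. All 8 genes are named, with adjacent genes and, for each role in the pathway list, up to 3 genes with the highest lower fold among those with a shared peak. A few genes of the lists are not reported here. Exons and untranslated regions were not annotated here. Scripts ran in Python 3.11.15 (numpy 2.4.6, pandas 2.3.3, matplotlib 3.10.9).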

Additional observations from a re-analysis of the deposited data

How the results depend on the processing

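The count of 3 genes with a shared peak was the same, and of the same genes, with 50% reciprocal overlap, midpoints within 100 nt, a false discovery rate of at most 0.001, a fold of at least 4 and naming by gene span. With a replicate left out, 3 to 5 genes had a peak in the remaining one, which is not a count of shared peaks. The count of genes with a peak in either replicate had the same range, and was 3 with a fold of at least 4. The count of other pathway genes fell from 20 to 11 with a fold of at least 4. It was 14 with 50% reciprocal overlap, 16 with a false discovery rate of at most 0.001 and 19 with midpoints within 100 nt. Naming by gene span left it at 20. With either replicate left out, 27 of these genes had a peak in the remaining one, which is not a count of shared peaks. Shared peaks within 200 nt of the start were 2 by the middle of the joined blocks and 1 by the middle of the genomic span, which includes introns. No paired analysis was possible because the input libraries have no values of their own here and no test was made. Without read counts, the depth behind each fold is unknown.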
